A study of Mus musculus with 2 samples.

Results

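The 6 genes described here encode mouse Fc receptor chains: Fcgr1, Fcgr3, Fcgr4, Fcgr2b, Fcer1g and Fcer1a. They were chosen by name as a gene family, with no threshold on their values, and all 6 were among the 11691 genes of the table. Their transcripts were followed across the cell labels of blood myeloid cells taken 24 h after stroke from aged and from young mice. The aged group held C57BL/6 mice of 18 to 24 months and the young group C57BL/6 mice of 2 to 4 months, with 1 library each. All mice had undergone a transient proximal occlusion of the middle cerebral artery (MCAo), a model of ischemic stroke, and blood of unoperated mice was not analysed here. Blood leukocytes carrying CD11b were sorted with and without surface Ly6G and measured with the 10x Genomics Chromium 3′ v2 kit, which counts unique molecular identifiers (UMIs) at transcript 3′ ends. Whether mice were pooled and how the sorted fractions were mixed is not given in the sources used here.

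Fc receptors let leukocytes sense antibodies that have bound their target. Fcgr1, Fcgr3 and Fcgr4 encode the ligand-binding chains of the activating IgG receptors, of high, low and intermediate affinity, and mediate phagocytosis and killing of antibody-coated targets. All of them signal through the common γ chain encoded by Fcer1g, whose tyrosine-based activation motif (ITAM) recruits the kinase Syk. Fcgr2b encodes the inhibitory IgG receptor, whose inhibitory motif (ITIM) recruits the phosphatase SHIP-1, encoded by Inpp5d. Fcer1a encodes the IgE-binding chain of the high-affinity IgE receptor of basophils and mast cells, which also contains the β chain encoded by Ms4a2 and the γ chain.

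On the mouse genome GRCm38, annotated by GENCODE M21, 5 of the 6 genes lie on chromosome 1. Fcgr2b (chr1:170958617-170976547, minus strand), Fcgr4 (chr1:171018920-171029761, plus strand) and Fcgr3 (chr1:171051174-171064935, minus strand) lie in the same region as Fcer1g (chr1:171229572-171234365, minus strand). Fcer1a follows at chr1:173221284-173227214 on the minus strand. Fcgr1 is on chromosome 3 (chr3:96282909-96293969, minus strand). None of the 6 overlaps exons of another gene on its own strand. Fcgr2b and Fcgr3 are similar in sequence: 264 of the 3606 stretches of 25 bases in Fcgr2b transcripts (7.32%) also occur in Fcgr3 transcripts. Within the last 500 bases of transcripts, where this kit reads, 94 of 1495 such stretches of Fcgr2b occur in Fcgr3 and 12 of 972 of Fcgr3 occur in Fcgr2b. How reads from such shared stretches were counted is not given in the sources used here, so the levels of Fcgr2b and Fcgr3 carry that uncertainty. Fcgr4 shared 0 such stretches with the other members.

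The promoters of the 3 activating IgG receptor genes and of Fcer1a are shown because their transcripts were held by different cell labels, Fcgr3 and Fcgr4 by monocytes and neutrophils, Fcgr1 mainly by monocytes and Fcer1a by a small label of its own. Each stretch runs from 100 bases before to 50 bases after the annotated gene start in RefSeq, on GRCm38.p6, and reads 5′ to 3′ on the strand of the gene. In Fcgr1, Fcgr3 and Fcgr4 the capitals mark CTTCCTCT, which is AGAGGAAG on the other strand. In Fcer1a they mark TTATCT, which is AGATAA on the other strand. For Fcgr3, RefSeq lists 2 starts. The one shown lies inside the gene as GENCODE M21 places it, which reaches to chr1:171064935 on the minus strand.
Fcgr1 (chr3:96293920-96294069, minus strand): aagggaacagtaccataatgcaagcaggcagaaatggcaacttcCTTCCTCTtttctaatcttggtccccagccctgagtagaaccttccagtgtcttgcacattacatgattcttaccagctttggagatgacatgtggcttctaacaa
Fcgr3 (chr1:171059354-171059503, minus strand): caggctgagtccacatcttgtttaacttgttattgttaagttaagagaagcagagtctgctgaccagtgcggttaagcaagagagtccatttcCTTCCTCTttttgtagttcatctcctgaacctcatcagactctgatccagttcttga
Fcgr4 (chr1:171018826-171018975, plus strand): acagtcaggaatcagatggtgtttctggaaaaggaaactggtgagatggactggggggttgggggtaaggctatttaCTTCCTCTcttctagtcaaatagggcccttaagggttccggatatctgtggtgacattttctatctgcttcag
Fcer1a (chr1:173227180-173227329, minus strand): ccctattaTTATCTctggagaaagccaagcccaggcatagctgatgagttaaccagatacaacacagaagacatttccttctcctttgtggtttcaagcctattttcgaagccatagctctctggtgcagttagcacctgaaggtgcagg

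AGAGGAAG holds the GGAA core bound by ETS family factors such as PU.1, and AGATAA the core bound by GATA factors, as general background. Over the 300 bases that the RefSeq table gives for each of 32851 promoters (250 before and 50 after the start), both strands were searched for 5 motifs chosen after the sequences had been read. AGAGGAAG was present in Fcgr1, in Fcgr4 and, at the start shown, in Fcgr3, and in 4.55% of all promoters. The shorter GAGGAA, which overlaps it, was present in those 3 genes and in Fcer1a, against 28.3% of all promoters. AGATAA was found in Fcer1a alone of the 6 members and in 11.2% of all promoters. TTCNNNGAA, the letters of a STAT element, was found in Fcgr1 from 109 bases before its start and in 8.30% of all promoters. An interferon-response element (GAAA, any 2 letters, GAAA) was found in Fcgr4 from 73 bases before its start and in 3.44% of all promoters. Fcgr2b and Fcer1g held none of the 5. These are matches of letters in a fixed window and say nothing of binding.

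The aged library held 3944 cells with 13752454 UMIs and the young library 1849 cells with 6440664 UMIs, at medians of 2219 and 2022 UMIs per cell. The libraries had 12 cell barcodes in common. After removal of likely doublets, 3820 aged and 1822 young cells remained under the authors' own population labels. Monocytes numbered 932 aged and 540 young cells at medians of 6402 and 6606 UMIs, and neutrophils 2628 and 1133 cells at 1900 and 1629 UMIs. Conventional dendritic cells (cDC) numbered 104 and 52, NK cells 58 and 70 and follicular B cells 41 and 14, and 42 aged cells were labelled Mast cell, a label absent from the young library. Values are UMIs summed over the cells of a label, as counts per 1000000 UMIs of that label in that library (CPM), with 95% intervals. With 1 library per age, no difference has a replicate check and no test could be made. The intervals cover counting error only and leave out the spread between mice. Each aged over young value compares these 2 libraries. A CPM is a share of a label's RNA, so fewer positive cells and less RNA per cell cannot be told apart in it, and shares of positive cells are given beside it. Because 3′ UMIs count molecule ends, CPM is not divided by transcript length. Capture of each 3′ end can differ, so a comparison of 2 genes within a label is of UMIs, not of protein.

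Fcer1g, the shared signalling chain, was present in nearly every myeloid cell and at similar CPM in monocytes and neutrophils. Fcgr3 had close to equal CPM in those 2 labels, and Fcgr4 differed between them by less than 1.5-fold, whereas Fcgr1 and Fcgr2b stood far higher in monocytes. Fcer1a was almost confined to the cells labelled Mast cell.

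Fcer1g had 3777 CPM (3730 to 3825) in aged monocytes and 3356 CPM in young monocytes. In neutrophils it had 3881 CPM (3829 to 3933) in the aged and 4214 CPM in the young library. The dendritic cells followed with 2783 CPM in the aged and 2640 CPM in the young library. By CPM, monocytes over neutrophils was 0.973 (0.956 to 0.992) in the aged and 0.796 (0.775 to 0.819) in the young library. These are shares of RNA and not UMIs per cell, and monocytes had the higher median depth. Shares of positive cells depend on depth, so each cell was thinned at random to 1000 UMIs, and 96.7% of aged and 92.6% of young monocytes then still held an Fcer1g UMI. Without thinning the shares were 100% and 99.8%. In neutrophils the thinned shares were 96.7% in the aged and 97.7% in the young library. At that depth the median monocyte held 4 Fcer1g UMIs in the aged and 3 in the young library, and the median neutrophil 4 in both.

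Fcgr3, the low-affinity activating receptor that in mice is carried by monocytes, neutrophils and NK cells, had 551 CPM (533 to 570 CPM) in aged monocytes and 446 CPM (424 to 468) in young monocytes. In neutrophils its level was 559 CPM (539 to 579) in the aged and 523 CPM (492 to 556) in the young library. After thinning, 41.2% of aged and 36.1% of young monocytes and 42.3% of aged and 41.4% of young neutrophils held an Fcgr3 UMI. Without thinning the shares were 93.1% and 85.7% of monocytes and 66.1% and 59.0% of neutrophils, at the depths given above. At equal depth the shares of neutrophils were no lower than those of monocytes. Dendritic cells held less, 104 CPM in the aged and 103 CPM in the young library.

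Fcgr4, the intermediate-affinity receptor of mouse monocytes and neutrophils, had 231 CPM (220 to 243) in aged monocytes and 152 CPM (140 to 165) in young monocytes. In neutrophils it had 165 CPM (155 to 176) in the aged and 180.1 CPM (162 to 199.6) in the young library. Its order between these labels thus differed by library, with monocytes over neutrophils at 1.40 (1.29 to 1.52) in the aged and 0.844 (0.738 to 0.966) in the young library. The thinned share of positive cells was 22.1% and 14.3% in aged and young monocytes and 15.1% and 16.9% in aged and young neutrophils. Dendritic cells had 59.8 CPM in the aged and 43.6 CPM in the young library.

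Fcgr1, the high-affinity receptor, had 99.1 CPM (91.6 to 107 CPM) in aged monocytes and 64.6 CPM (56.6 to 73.4) in young monocytes. Monocytes held 93.3% of all Fcgr1 UMIs in the aged and 83.6% in the young library. Dendritic cells held 4.55% and 12.5% of them. Neutrophils had only 10 UMIs in each library, 1.82 CPM in the aged and 4.93 CPM in the young. The monocyte level stood 54.3-fold (29.4 to 114) above that of neutrophils in the aged and 13.1-fold (6.99 to 27.7) in the young library. Free RNA in droplets can give a low level of monocyte transcripts in other cells. In neutrophils the monocyte genes F13a1, Fn1 and Ms4a6c were at 2.22%, 3.22% and 1.95% of their monocyte level in the aged library. Fcgr1 was at 1.84% (0.878% to 3.41%) there, an interval that held the values of those genes. The part of free RNA in neutrophil Fcgr1 was not tested. In young neutrophils it was at 7.64% (3.62% to 14.3%), beside 2.90%, 4.48% and 4.12% for the same 3 genes, with intervals that overlapped.

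Fcgr2b, the inhibitory receptor, had 261 CPM (249 to 274) in aged monocytes and 194 CPM (179.9 to 209) in young monocytes. Neutrophils had 24.1 CPM (20.2 to 28.6) in the aged and 24.2 CPM (17.9 to 32.0) in the young library. Monocytes over neutrophils was 10.8 (9.07 to 13) in the aged and 8.02 (6.00 to 11) in the young library. As a share of the monocyte level, neutrophil Fcgr2b was 9.23% (7.68% to 11%) in the aged and 12.5% (9.13% to 16.7%) in the young library, above F13a1, Fn1 and Ms4a6c but below Csf1r at 15.2% and 24.3%. Of the 5 members measured in both labels, Fcgr1 and Fcgr2b were at least 2-fold higher in monocytes in both libraries and none was 2-fold lower. That count of 2 of 5 stands beside a background of 58.4% of all genes at least 2-fold higher in monocytes than in neutrophils in the aged library and 51.7% in the young, and 8.29% and 9.28% at least 2-fold lower. The count is therefore not particular to these genes. Dendritic cells had 115 CPM of Fcgr2b in the aged and 99.97 CPM in the young library.

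**Figure D1:**
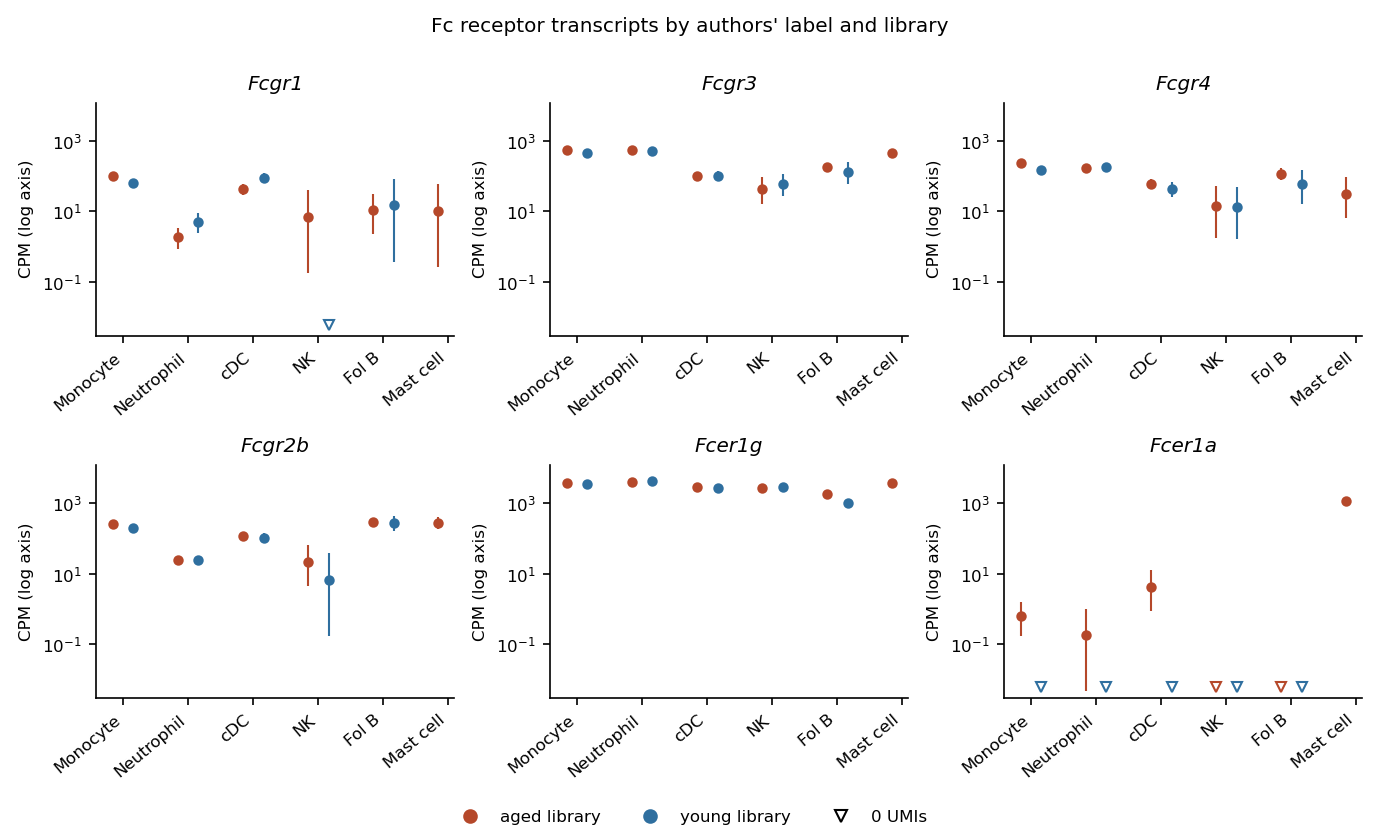
Levels of the 6 members in CPM (log axis) by the authors' label, with aged (red, left) and young (blue, right) libraries side by side, bars for 95% counting intervals and open triangles for 0 UMIs. Fcer1g lies between 999 and 4214 CPM in all labels drawn, Fcgr1 and Fcgr2b fall away in neutrophils, and Fcer1a reaches 1108 CPM in the cells labelled Mast cell.

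The 4 IgG receptor genes made up different proportions in monocytes and neutrophils, which hardly differed between the libraries for Fcgr2b. Of 7321 Fcgr UMIs in aged monocytes and 3103 in young monocytes, Fcgr3 made up 48.3% and 52.1%. Fcgr2b made up 22.8% (21.9% to 23.8%) in aged and 22.7% (21.2% to 24.2%) in young monocytes. Fcgr4 contributed 20.2% and 17.8%, and Fcgr1 8.67% and 7.54%. In neutrophils, with 4111 aged and 1484 young Fcgr UMIs, Fcgr3 made up 74.5% and 71.4% and Fcgr4 22.0% and 24.6%, which left 3.21% (2.69% to 3.80%) and 3.30% (2.45% to 4.34%) for the inhibitory Fcgr2b. The share of Fcgr2b in these UMIs was thus nearly equal in aged and young libraries within each label, with overlapping intervals. Per Fcgr2b UMI, monocytes held 3.38 UMIs of the activating receptors (3.20 to 3.57) in the aged and 3.41 (3.14 to 3.72) in the young library. Neutrophils held 30.1 (25.3 to 36.1) in the aged and 29.3 (22.0 to 39.8) in the young library. Dendritic cells held 1.80 in the aged and 2.36 in the young library, from 232 and 131 Fcgr UMIs.

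**Figure D2:**
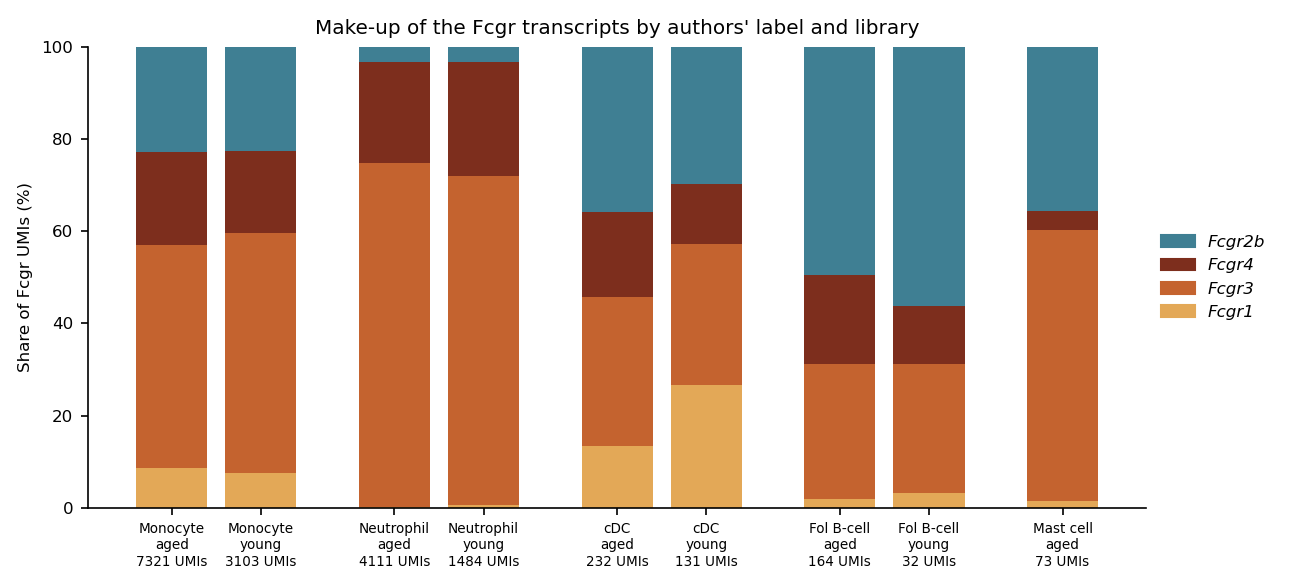
Share of Fcgr UMIs (%) taken by each IgG receptor gene, as stacked bars by the authors' label and library, with the number of Fcgr UMIs under each bar. The inhibitory Fcgr2b takes 22.8% and 22.7% in aged and young monocytes and 3.21% and 3.30% in aged and young neutrophils.

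The γ chain exceeded the activating IgG receptor chains in every label with at least 50 UMIs of both. Monocytes held 4.28 Fcer1g UMIs (4.16 to 4.41) per activating Fcgr UMI in the aged and 5.07 (4.85 to 5.30) in the young library. Neutrophils held 5.35 (5.17 to 5.53) in the aged and 5.95 (5.63 to 6.30) in the young library. Dendritic cells, with fewer IgG receptor transcripts, held 13.4 and 11.2. Tyrobp encodes DAP12, the other common ITAM adaptor of myeloid cells. Fcer1g per Tyrobp UMI was 0.850 (0.836 to 0.865) in aged and 0.706 (0.690 to 0.723) in young monocytes, and 0.570 (0.561 to 0.580) in aged and 0.474 (0.462 to 0.486) in young neutrophils. This ratio of 2 genes within a library does not depend on how the libraries are scaled, and it was higher in the aged library in both labels. Tyrobp itself had 4442 CPM in aged and 4754 CPM in young monocytes, and 6805 CPM in aged and 8896 CPM in young neutrophils.

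NK cells in mice carry Fcgr3 together with the γ chain. Fcer1g was abundant in the NK label, with 2668 CPM in the aged and 2880 CPM in the young library, and 81.0% and 91.4% of cells held a UMI at 1000 UMIs per cell. Fcgr3 was scarce, with 6 UMIs in 58 aged cells (43.0 CPM, 15.8 to 93.7) and 9 UMIs in 70 young cells (60.1 CPM, 27.5 to 114). Median depths were 2314 UMIs in aged and 2000 UMIs in young NK cells. Neutrophil transcripts, which free RNA can carry into other cells, were set beside Fcgr3. In the aged library S100a8, S100a9, Retnlg and Ly6g lay at 6.38% to 8.03% of their neutrophil level in NK cells. Fcgr3 lay at 7.70% (2.82% to 16.8%), an interval that held the values of those 4 genes. The part of free RNA in NK Fcgr3 was not tested. In the young library the same 4 genes lay at 1.62% to 3.93% and Fcgr3 at 11.5% (5.24% to 21.9%), above S100a8, S100a9 and Retnlg beyond counting error but not beyond the wide interval of Ly6g (0.0409% to 9.04%). Fcer1g was at 68.7% and 68.3% of its neutrophil level in aged and young NK cells, well above those genes. Fcgr1, Fcgr2b and Fcgr4 had 1, 3 and 2 UMIs in aged and 0, 1 and 2 UMIs in young NK cells. At 1000 UMIs per cell, 0 of 58 aged and 0 of 70 young NK cells had an Fcgr1 or Fcgr4 UMI, and 3 counts of the total would allow shares of up to 5.17% and 4.29%. These limits hold for cells with a UMI at that depth, not for cells that express the genes.

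B cells are known to carry Fcgr2b as their IgG receptor and to lack the activating ones. The follicular B label had 297 CPM of Fcgr2b (236 to 369) in the aged and 268 CPM (159 to 424) in the young library, close to the monocyte level. It also held activating receptor transcripts, with 176 and 134 CPM of Fcgr3 and 117 and 59.6 CPM of Fcgr4 in aged and young cells. Monocyte transcripts accompanied them, at shares of their monocyte level that varied by gene. In aged and young B cells Csf1r stood at 59.8% and 47.6%, Ccr2 at 45.9% and 34.7% and Ms4a6c at 41.5% and 27%. Fn1 stood at 35.9% and 12.8%, F13a1 at 25.6% and 21.9% and Ly6c2 at 19.3% and 7.89%. On the same scale Fcgr3 was at 31.9% and 30.1% and Fcgr4 at 50.7% and 39.2%. When the label was divided by UMIs of an 8-gene classical monocyte list, a division chosen after the values were seen, the 26 aged cells under 10 such UMIs had 266 CPM of Fcgr2b (184 to 372). Their Fcgr3 level was 46.9 CPM from 6 UMIs and their Fcgr4 level 31.3 CPM from 4 UMIs. The 15 aged cells with 10 or more had 324 CPM of Fcgr2b, 289 CPM of Fcgr3 and 193 CPM of Fcgr4, and their median depth was 10267 UMIs, against 4245 UMIs in the cells under 10. In the 11 young cells under 10, Fcgr2b had 3 UMIs (86.9 CPM, 17.9 to 254) and the activating receptors 0. The 3 young cells with 10 or more held 15 Fcgr2b UMIs (461 CPM, 258 to 760), 9 of Fcgr3 and 4 of Fcgr4. In the aged library Fcgr2b was thus present in B-labelled cells with few monocyte transcripts. The activating receptors were mainly in cells that also held many. In the young library Fcgr2b too was mainly in the 3 cells that held many. The part of monocyte RNA or of undetected doublets in those cells was not tested.

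Fcer1a had 106 of its 114 UMIs in the aged library (93%) in the 42 cells labelled Mast cell, where it reached 1108 CPM (907 to 1340). It was detected in 36 of these 42 cells, with at most 7 UMIs in a cell. The remaining UMIs were 4 in monocytes, 3 in a single dendritic cell and 1 in a neutrophil, all aged. Against the 4 UMIs of aged monocytes the level was 1775-fold higher (673 to 6635), and without doublet removal, with 8 UMIs in monocytes, it was 904-fold higher (443 to 2145). Among all genes measured, 14.3% were at least 2-fold higher and 33.6% at least 2-fold lower in these cells than in aged monocytes. Fcer1a was called higher and Fcgr4 and Fcgr1 lower of the 6 members, and Fcer1g, Fcgr3 and Fcgr2b were within 2-fold. The γ chain had 3607 CPM (3236 to 4008) and was found in 42 of 42 cells. Fcgr3 had 449.6 CPM (325 to 606) and the inhibitory Fcgr2b 272 CPM (178 to 398), both near the monocyte levels, and Fcgr4 had 31.4 CPM from 3 UMIs. Monocyte genes were also found here, from F13a1 at 3.40% of its monocyte level to Csf1r at 18.3% (3.77% to 53.6%), Ccr2 at 29.1% (19.0% to 42.7%) and Ly6c2 at 33.3% (23.2% to 46.3%). Fcgr2b at 104% (67.9% to 153%) and Fcgr3 at 81.5% (58.9% to 110%) stood above them beyond counting error.

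The label matched the markers of these cells only in part. All 14 basophil-list genes in the table were detected, against 12 of them in aged monocytes and 13 in aged neutrophils. By level, the list had 17272 CPM here, against 151 and 227 CPM in those labels. The mast list had 2865 CPM here, against 35.3 and 686 CPM. Mcpt8, a basophil protease, had 341 UMIs in 31 of 42 cells, Cd200r3 161 UMIs in 40 and Cyp11a1 162 UMIs in 41. Of the 5 mast-list genes in the table, Cma1, a mast cell chymase, had 0 UMIs and Kit had 1. The other 3 were detected, Hdc, which makes histamine, with 191 UMIs in 41 cells, Gata2 with 68 in 30 and Cpa3 with 14 in 8. Gata2 and Cpa3 are on the basophil list too, and Hdc is on the neutrophil list. The cells are therefore called by the authors' label only. Ms4a2, the β chain of the IgE receptor, had 54 UMIs (565 CPM) here, against 2 UMIs in aged monocytes and 5 in aged neutrophils. All 3 chains, Fcer1a, Ms4a2 and Fcer1g, were detected together in 26 of the 42 cells (61.9%, exact binomial interval 45.6% to 76.4%), and Fcer1a with Mcpt8 in 27. Neither Fcer1a nor Mcpt8 was found in 2 of them.

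Fcer1a was listed at 0 in the young library, as were Ms4a2 and Mcpt8. A gene filter that the sources used here do not describe bears on these zeros, since every gene with a UMI in a library was found in at least 3 of its cells, so a gene in fewer cells would also be listed at 0. In the young library 854 genes were at 0, including 10 of the 14 basophil-list genes, and in the aged library 129 genes, including 0 of the 14. No fold and no limit is given for Fcer1a between the libraries.

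Monocytes held more of every measured Fc receptor transcript in the aged than in the young library. By CPM the activating Fcgr1 and Fcgr4 had the highest ratios and the γ chain the lowest. All 5 ratios had counting intervals above 1, and the median of all genes in monocytes was at a log2 ratio of 0.01. Aged over young was 1.54 (1.32 to 1.79, log2 0.62) for Fcgr1 and 1.52 (1.38 to 1.68, log2 0.61) for Fcgr4. It was 1.34 (1.23 to 1.47, log2 0.43) for Fcgr2b and 1.24 (1.17 to 1.31, log2 0.31) for Fcgr3. Fcer1g stood at 1.13 (1.10 to 1.15, log2 0.17). Thus 2 of the 5 measured members, Fcgr1 and Fcgr4, were at least 1.5-fold higher and none 1.5-fold lower, against 5.9% of 7780 genes at least 1.5-fold higher and 8.68% lower. Both lie just over that threshold, and their intervals reach below it. Leaving ribosomal and mitochondrial genes out of the total ended both calls, at 1.47 for Fcgr1 and 1.45 for Fcgr4. In cells thinned to 500 UMIs Fcgr4 was at 1.34 (0.947 to 1.92), below Fcgr2b at 1.68 (1.19 to 2.40), so the order of the members was not stable. At 1000 UMIs per cell, 10.2% of aged and 6.11% of young monocytes held an Fcgr1 UMI, and for Fcgr2b the shares were 22.5% and 17.6%. The share of monocytes with none of the 4 Fcgr genes was 32.6% in the aged and 42.0% in the young library, and the share with exactly 2 of them was 19.4% and 12.04%. Neutrophil-list transcripts in monocytes also differed, at 34190 CPM in the aged and 23991 CPM in the young library, and NK-list transcripts at 39.7 and 124.5 CPM. Their part in these ratios was not tested.

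In neutrophils the ratios were closer to 1 by CPM, and their size, and for Fcgr2b, Fcgr4 and Fcer1g their direction, depended on how the libraries were scaled. With CPM, aged over young was 1.07 (0.996 to 1.15) for Fcgr3, 0.917 (0.811 to 1.04) for Fcgr4 and 0.996 (0.713 to 1.41) for Fcgr2b. For Fcer1g it was 0.921 (0.898 to 0.944). None of the 4 measured members was 1.5-fold higher or lower, against 3.81% of 4746 genes at least 1.5-fold higher and 20.3% lower. The median log2 ratio of all neutrophil genes was -0.24, and trimmed-mean (TMM) factors moved it to 0.07. With those factors Fcgr3 was at 1.33 (1.24 to 1.43), Fcgr4 at 1.14 (1.01 to 1.29), Fcer1g at 1.14 (1.12 to 1.17) and Fcgr2b at 1.24 (0.885 to 1.75). Fcgr2b, Fcgr4 and Fcer1g thus turned from below to above 1, and Fcgr3 and Fcer1g were then no closer to 1 than in monocytes. At 1000 UMIs per cell the shares of positive neutrophils were 42.3% aged and 41.4% young for Fcgr3 and 2.13% aged and 2.65% young for Fcgr2b. In the same libraries the aged neutrophils carried more S100a8, at 207423 CPM against 171243 CPM in young neutrophils.

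**Figure D3:**
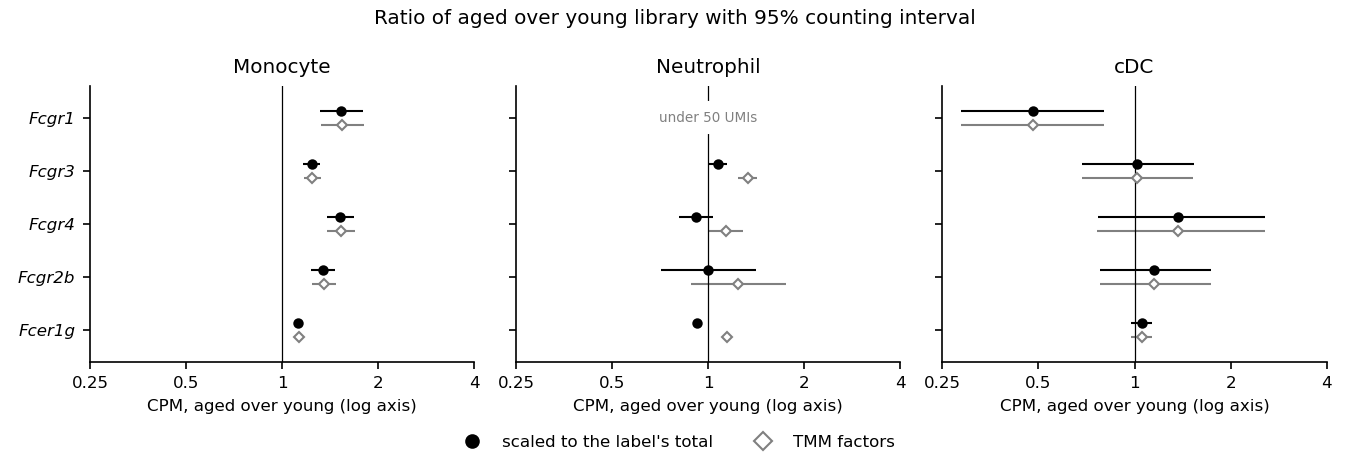
Ratio of aged over young CPM (log axis, line at 1) for the members measured in monocytes, neutrophils and cDC, scaled to the label's total (filled points) or with TMM factors (open diamonds), with 95% counting intervals. All 5 members lie above 1 in monocytes under both scalings, neutrophil Fcgr2b, Fcgr4 and Fcer1g cross 1 between scalings, and Fcgr1 lies at 0.480 in cDC.

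In the smaller labels most ratios had intervals that included 1. Dendritic cells were the exception for Fcgr1, with 43.1 CPM (29.3 to 61.1) from 31 UMIs in the aged and 89.7 CPM (62.5 to 125) from 35 UMIs in the young library. Aged over young was 0.480 (0.286 to 0.802), at least 1.5-fold lower, as were 5.95% of 2504 genes measured there, while 9.31% were at least 1.5-fold higher. The UMIs came from 18 of 104 aged and 16 of 52 young cells, and 10 of the 35 young UMIs from a single cell. Without the highest cell of each library the ratio was 0.556 (0.309 to 1.00), with 26 aged and 25 young UMIs. The other members in dendritic cells had ratios of 1.15 (0.780 to 1.73) for Fcgr2b, 1.02 (0.684 to 1.53) for Fcgr3, 1.37 (0.766 to 2.56) for Fcgr4 and 1.05 (0.977 to 1.14) for Fcer1g. Fcer1g in NK cells was at 0.926 (0.804 to 1.07), where 5.73% of 698 genes were at least 1.5-fold higher and 11% lower. In B cells it was at 1.77 (1.37 to 2.32), with 1769 CPM in the aged and 999 CPM in the young library, where 30.2% of 802 genes were at least 1.5-fold higher and 8.48% lower. In B-labelled cells under 10 classical-list UMIs, Fcer1g had 626 CPM (496 to 779) in the aged and 406 CPM (222 to 681) in the young library, with overlapping intervals.

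Mouse monocytes range from classical Ly6c2-high cells to nonclassical cells, and Fcgr4 is known as a marker of the nonclassical ones. Monocytes were placed by which of 2 marker lists, of 8 classical and 10 nonclassical genes, had more UMIs at 1000 UMIs per cell. These are ranges of a score, not types, and 91 aged (9.76%) and 48 young (8.89%) monocytes lay within 1 UMI of the line between them. The nonclassical list was higher in 35 aged (3.76%) and 28 young (5.19%) cells, and the classical list in 868 and 498. The ranges followed markers used to set them: Ace had 176 CPM in the nonclassical and 10.0 CPM in the classical range of the aged library. None of the 6 Fc receptor genes was on either list.

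Fcgr4 was the member that differed most between the ranges, and Fcer1g went with it. In the aged library Fcgr4 had 812 CPM in the nonclassical and 212 CPM in the classical range, 3.83-fold higher (3.15 to 4.62). In the young library it had 614 CPM in the nonclassical and 127 CPM in the classical range, 4.83-fold higher (3.81 to 6.08). Fcer1g was 1.66-fold higher (1.55 to 1.77) in the nonclassical range in the aged library and 1.70-fold (1.58 to 1.83) in the young, with 6137 and 5525 CPM there. Fcgr2b was 1.26-fold higher (0.924 to 1.68) in the aged and 1.79-fold (1.31 to 2.40) in the young library. Fcgr3 went the other way in the young library, at 0.686 (0.50 to 0.920), and was at 0.978 (0.773 to 1.22) in the aged library. Fcgr1 was lower in the nonclassical range of the aged library, at 0.404 (0.148 to 0.884) from 6 UMIs, and at 1.15 (0.568 to 2.11) in the young library. With cells placed at 500 UMIs, aged Fcgr1, young Fcgr2b and young Fcgr3 had intervals that overlapped between the ranges. In the nonclassical and classical ranges they were at 79.8 and 98.8, 234 and 187, and 417 and 451 CPM. Fcgr4 stayed higher in the nonclassical range, at 573 and 205 CPM in the aged and 497 and 128 CPM in the young library. Pglyrp1, a list gene that neutrophils also hold, had 683 CPM in the nonclassical and 109 CPM in the classical range of aged monocytes. Other neutrophil transcripts differed too, with Retnlg at 4993 and 2196 CPM and S100a9 at 11354 and 8627 CPM in the aged nonclassical and classical ranges, while S100a8 was at 18005 and 23060 CPM. In the young library Retnlg was at 1869 and 1725 CPM and S100a9 at 4501 and 5521 CPM. Their part in the folds was not tested. Without it the fold for Fcgr4 was 4.15 in the aged and 4.21 in the young library.

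**Figure D4:**
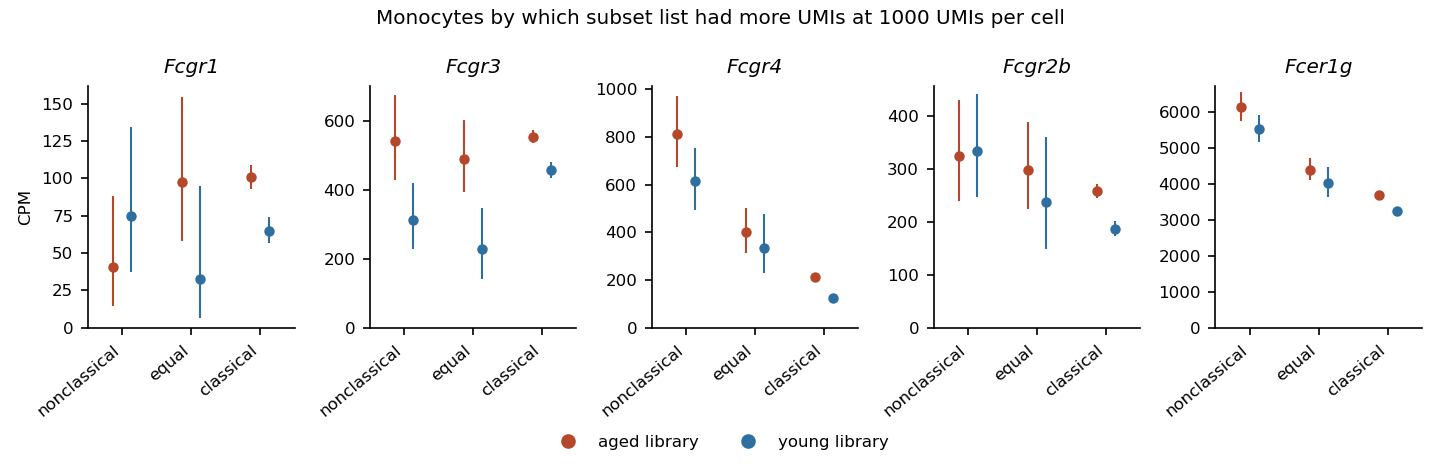
CPM of 5 members in monocytes whose nonclassical list was higher, equal or lower than the classical list at 1000 UMIs per cell, in aged (red) and young (blue) libraries with 95% counting intervals. Fcgr4 descends to 212 CPM in aged and 127 CPM in young cells of the classical range, from 812 CPM and 614 CPM in the nonclassical range.

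Within the classical range alone, aged over young was 1.55 (1.32 to 1.81) for Fcgr1, 1.67 (1.495 to 1.87) for Fcgr4, 1.38 (1.26 to 1.52) for Fcgr2b, 1.21 (1.14 to 1.29) for Fcgr3 and 1.14 (1.12 to 1.17) for Fcer1g. These are near the values for all monocytes. The share of the nonclassical range was smaller in the aged library, and its part in the ratios of all monocytes was not tested. In the nonclassical range Fcgr4 was at 1.32 (0.998 to 1.76) and Fcgr3 at 1.73 (1.19 to 2.54). Monocytes with a UMI of the complement C1q genes were 16.3% of aged and 7.78% of young monocytes. In the aged library they held more Fcgr1, at 131 CPM (110 to 154) against 92.6 CPM (84.6 to 101) in cells without one. In the young library the intervals overlapped, at 86.3 CPM (56.9 to 125.5) from 27 UMIs against 62.5 CPM (54.3 to 71.65). With cells divided at 500 UMIs the aged intervals overlapped too, at 113 CPM (89.3 to 141.5) against 97.4 CPM (89.5 to 105.9). Among cells without a C1q UMI, aged over young was 1.48 for Fcgr1, 1.39 for Fcgr2b and 1.60 for Fcgr4. Among cells with a C1q UMI it was 1.51 (0.998 to 2.38) for Fcgr1, 0.924 (0.737 to 1.17) for Fcgr2b and 1.00 (0.773 to 1.31) for Fcgr4, so the last 2 were not higher in aged cells of that range. Cells with a UMI of Spp1 or Dmkn were 24.3% of aged and 5.19% of young monocytes and held less Fcgr4, at 156 and 36.5 CPM, against 257 and 159.5 CPM in aged and young cells without one. Leaving them out gave 1.54 for Fcgr1 and 1.61 for Fcgr4. Within them the ratio was 1.05 (0.680 to 1.70) for Fcgr1 and 4.28 (2.14 to 10.02) for Fcgr4, from 256 aged and 8 young UMIs. In cells under 2 UMIs of the interferon list the ratio of Fcgr1 was 1.51 (the division of cells by these genes was chosen after the data were seen).

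In neutrophils Fcgr3, Fcgr4 and Fcer1g varied little with maturity as read from an early granule list. Cells with a UMI of that list at 1000 UMIs were 58.0% of aged and 49.9% of young neutrophils. Fcgr3 had 543 CPM in aged cells with such a UMI and 583 CPM in those without, and 541 and 504 CPM in young cells. Fcer1g had 3747 and 4087 CPM in aged and 4024 and 4423 CPM in young neutrophils with and without such a UMI. Fcgr4 had 158 and 177 CPM in aged and 188 and 171 CPM in young cells. Fcer1g was thus lower in the cells with early granule transcripts in both libraries. Fcgr2b had 20.4 and 29.7 CPM in aged and 26.4 and 21.8 CPM in young cells with and without one. For Fcgr2b, Fcgr3 and Fcgr4 these counting intervals overlapped in both libraries, so no order is read. With cells divided at 500 UMIs, aged Fcgr3 was at 525 CPM (495.7 to 555.5) with and 583.5 CPM (557.3 to 610.7) without such a UMI. Those intervals did not overlap, while the young ones did, at 539.6 and 513.6 CPM.

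In monocytes most receptor pairs were found in the same cells about as often as their shares predict at 1000 UMIs. In neutrophils this held for Fcgr3 with Fcgr4. Neutrophil pairs with Fcgr1 rest on 6 cells with an Fcgr1 UMI in each library and are not read. In dendritic cells each IgG receptor pair was found together in 2 cells or fewer, so those are not read. At 1000 UMIs, Fcgr2b and Fcgr3 were found together in 85 of 932 aged monocytes, 0.982 times the product of their shares, and the same measure was 0.991 in young monocytes. For Fcgr2b with Fcgr4 it was 1.21 in the aged and 1.18 in the young library. Fcgr1 and Fcgr2b were found together in 29 aged monocytes, at 1.36, and in 6 young monocytes, at 1.03. For Fcgr3 with Fcgr4 in neutrophils it was 1.05 from 176 aged cells and 0.906 from 72 young cells. In young monocytes that pair was at 0.827 and Fcgr1 with Fcgr4 at 1.49, against 1.05 and 1 in aged monocytes. At 500 UMIs Fcgr2b with Fcgr3 was at 1.30 in aged monocytes, and Fcgr3 with Fcgr4 at 0.584 in young monocytes from 5 cells. Neutrophil Fcgr2b with Fcgr3 was at 1.01 in the aged and 0.805 in the young library at 1000 UMIs. Neutrophil Fcgr2b with Fcgr4 was at 1.07 and 1.77, from 9 cells in each library. The activating and inhibitory genes were thus found in the same monocytes, and at 1000 UMIs these values rest on few cells for Fcgr1.

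Most genes that carry the Fc receptor signal differed less between the libraries than Fcgr1 and Fcgr4 did in monocytes. Of 20 measured genes of activating Fc signalling, 0 were at least 1.5-fold higher and 2 lower, with a median log2 ratio of -0.15. Among all genes from 20 UMIs, 7.54% were at least 1.5-fold higher and 11.2% lower, with a median of -0.00. The lower ones were Fgr, a Src family kinase of myeloid cells, at 0.663 (0.600 to 0.734), and Malt1 at 0.497 (0.291 to 0.844). With TMM factors Fgr, at 0.667, was no longer past 1.5-fold and Malt1 still was, at 0.5001. Syk, the kinase that binds the γ chain motif, had 72.9 CPM in aged and 96.0 CPM in young monocytes, a ratio of 0.759 (0.659 to 0.875). Lyn was at 1.03 and Rac2 at 0.980. Of 10 inhibitory genes, Dok2, an adaptor that dampens kinase signals, was the only one at least 1.5-fold higher, at 2.23 (1.64 to 3.08), and none was lower. The phosphatases downstream of inhibitory receptors, Ptpn6 at 1.17 and Inpp5d at 0.873, were not. Fcgrt, the neonatal Fc receptor that protects IgG from breakdown, was lower, at 0.662 (0.520 to 0.844). Among 12 genes of ITAM adaptors and their partners, the lectin Clec4n at 1.95 (1.43 to 2.70), which pairs with the γ chain, and Trem1 at 1.72 (1.25 to 2.39), which pairs with DAP12, were higher. Of 14 ITIM receptors, Clec12a at 0.479 (0.413 to 0.554) and Pecam1 at 0.603 (0.355 to 1.03) were lower and none was higher. Of 9 interferon-stimulated genes 0 were past 1.5-fold either way.

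In neutrophils 4 of 19 activating signalling genes were at least 1.5-fold lower and 0 higher, at a median log2 ratio of -0.34, where all genes had a median of -0.26 with 5.85% higher and 24.7% lower. They were Syk at 0.625 (0.541 to 0.723), Plcg2 at 0.518, Gab2 at 0.588 and Pik3r1 at 0.622. With TMM factors 1 of the 19, Plcg2 at 0.643, was at least 1.5-fold lower and the median was -0.03, where 12.8% of all genes were at least 1.5-fold higher and 10.6% lower. Of 9 inhibitory genes, Inpp5d at 0.601 and Dok1 at 0.397 were lower, and Dok1 alone with TMM factors. Of 12 ITAM genes, Il3ra was higher at 3.42 (1.23 to 13.2) and 3 were lower, of which 0 with TMM factors. Clec12a at 0.402 and Lair1 at 0.409 were the 2 lower ones of 13 ITIM receptors, and 2 of the 13 were past that fold with TMM factors. Of 12 interferon-stimulated genes 5 were lower, and 1 with TMM factors.

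The genes whose levels ran most like those of each member were found by Pearson correlation of log2(CPM + 10) over 13 label-by-library groups, a description over groups that share 2 libraries. For Fcgr1 they were Ccdc109b (0.954), Ms4a4c (0.946) and Lsr (0.940), and for Fcgr2b Fam43a (0.944), Evi5 (0.941) and Apip (0.937). For Fcgr3 they were Cebpb (0.961), a myeloid transcription factor, Gsr (0.904) and Hacd4 (0.903), and for Fcgr4 Pla2g7 (0.943), Fgd4 (0.939) and App (0.921). For Fcer1g they were Fam103a1 (0.963), Myo1f (0.955) and Ostf1 (0.952). For Fcer1a Mcpt8 was closest (0.997), ahead of Adck4 (0.938). Fcer1a had 106 of its 114 UMIs in the group of cells labelled Mast cell, so its correlations rest mainly on that group. They say little of how these genes run across the other groups. Other genes under 200 UMIs, Ms4a2 among them, were not ranked. Among the members themselves Fcgr3 and Fcgr4 had a correlation of 0.776 and Fcgr1 and Fcgr2b of 0.684.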

How the data were processed

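Raw UMI counts per gene and cell were used as deposited, with the authors' population label and library for each cell. Reads were processed with Cell Ranger 2.1.1 against mm10, per the submitters' processing notes. How cells and genes were filtered is not given in the sources used here. Columns of the table that were not used numbered 0.

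Doublets were scored with scrublet in scanpy 1.11.5. Its automatic threshold called 0 aged and 4 young cells, so the highest-scoring cells were removed at 8 per 1000 for each 1000 cells, 124 aged (3.14%) and 27 young (1.46%). Counts were summed by label and library and divided by the label's total (CPM). Sums have exact Poisson, shares Clopper-Pearson and ratios exact conditional binomial intervals at 95%, computed with scipy 1.17.1. No test was run, since each age has 1 library. Ratios needed 50 UMIs over both libraries, genes in lists 20. A fold of 1.5 between libraries, or 2 between labels, was called. Cells were thinned to 1000 UMIs for shares. Alternatives were 500 UMIs, TMM (edgeR 4.0.16), centring, totals without abundant genes, no doublet removal, equal lowest depth and other UMI minimums.

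All 6 members were named, with up to 5 genes of highest correlation for each (genes with at least 200 UMIs). Of each pathway list, up to 4 genes with the highest counts and 4 with ratios farthest from 1 could be named. The members and lists were chosen with earlier results of these data known. The ratio code was checked on simulated counts.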

Additional observations from a re-analysis of the deposited data

Results flagged for a closer look

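Fcgr1 was higher in aged than in young monocytes and lower in aged than in young dendritic cells, with aged over young ratios of 1.54 and 0.480 and intervals on opposite sides of 1. The difference between the labels was not tested, and the dendritic ratio rests on 31 aged and 35 young UMIs. Fcer1g was at 1.13 in monocytes and 0.921 in neutrophils, again on opposite sides of 1, and this difference was not tested. With TMM factors neutrophil Fcer1g was at 1.14, so the opposite directions did not hold under that scaling. In B cells Fcer1g was at 1.77, opposite to the 0.921 of neutrophils under CPM, a difference that was not tested. Of 483 aged B-cell UMIs of Fcer1g, 403 were in the 15 cells with 10 or more UMIs of the classical monocyte list.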

How the results depend on the processing

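For the 5 monocyte ratios, 4 neutrophil ratios and 4 Fcgr2b shares, 97 values were recomputed under other settings. Of these, 73 stayed within the counting interval of the reported value and 24 moved outside it. In cells thinned to 500 UMIs the aged over young ratio in monocytes was 2.08 for Fcgr1, 1.68 for Fcgr2b, 1.33 for Fcgr3, 1.34 for Fcgr4 and 1.30 for Fcer1g. Monocyte Fcer1g was at 1.23 at 1000 UMIs and at 1.08 (1.05 to 1.10) with totals that omit ribosomal and mitochondrial genes. Thinning to 500 UMIs put the Fcgr2b share of Fcgr UMIs at 24.3% in aged and 20.9% in young monocytes and at 3.84% in aged neutrophils. Neutrophil Fcgr3 was at 1.33 with TMM factors, 1.26 centred on the median gene, 1.23 with S100a8, S100a9 and Retnlg left out of the total and 1.18 at 500 UMIs. Neutrophil Fcgr4 was at 1.14, 1.08 and 1.05 under the first 3 of these. Neutrophil Fcer1g was at 1.14, 1.09 and 1.06 under those 3, at 0.897 without ribosomal and mitochondrial genes, 0.888 at 1000 UMIs, 0.878 at 500 UMIs and 0.970 with the same lowest depth in both libraries. The cause was not tested. Every monocyte ratio, and neutrophil Fcgr3, kept its direction in the settings run. Neutrophil Fcgr2b, Fcgr4 and Fcer1g did not, and Fcgr2b lay between 0.805 at 1000 UMIs and 1.40 at 500 UMIs.

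Of 190 other recomputed values, 159 stayed within their interval. Genes at least 1.5-fold higher and lower in monocytes numbered 459 and 675 from 50 UMIs, 704 and 1046 from 20 UMIs and 181 and 212 from 200 UMIs. In neutrophils they numbered 181 and 962, 382 and 1615, and 50 and 356. From 20 UMIs, TMM factors turned the neutrophil counts to 834 higher and 693 lower. Leaving out B cells with 2 or more monocyte-list UMIs left no B cell, so that setting gave no value. Depth limits Fcgr1 outside monocytes and all members in NK and B cells. No paired analysis was possible because each age has 1 library.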

Other observations

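The cells labelled Eryth-Neutro, 15 aged and 13 young, had 1935 CPM of Fcer1g (1597 to 2322) in the aged and 633 CPM (462 to 847) in the young library. Fcgr3 had 10 UMIs there in the aged and 6 in the young library, and Fcgr4 10 UMIs in the aged and 1 in the young library. Before doublet removal, 38 of 44 aged cells labelled Mast cell held Fcer1a, with 112 UMIs in all, and 5 of 993 aged monocytes held 8 UMIs.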
